A study of Mus musculus with 4 samples.

Results

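The peaks described here are the 572 regions with the highest summit pileup in a list of 7484 enriched regions from mouse striatum, in which the tagged thyroid hormone receptor TRα1 was immunoprecipitated. They were chosen by measured values: an autosome, a pileup of at least 50, a background of at most 8, and a position outside the first 3100000 bases of chromosome 9. The pileup is the height of stacked fragments at the summit after the caller's scaling, and the background is (pileup + 1) / fold − 1. The same limits on chromosome and background left 7388 regions in all, so the members are 7.74% of them and the remaining peaks number 6816. Because pileup chose the members, their pileup, fold, q value and width are given as description only.

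The study set 3 immunoprecipitated fractions against 1 input, all from striatum. Per the title, the animals carried Gad2-Cre, a driver active in GABAergic neurons, and a Thra-GS allele that adds a GS tag to TRα1. The fractions were recovered on magnetic beads coated with IgG, and the input saw no antibody. Age, sex, hormone status, the number of animals and the cells that make the tagged protein are not given in the sources used here, and an immunoprecipitation from untagged animals was not analysed here. The deposited values are 1 list for all libraries, so no value has a replicate error, no group is tested against another, and the intervals below, all 95% exact (Clopper-Pearson) for shares, cover counting error over peaks or genes only.

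TRα1 is a nuclear receptor that binds DNA with or without its ligand T3, mostly as a heterodimer with a retinoid X receptor. Its textbook element is a direct repeat of the hexamer AGGTCA with 4 bases between the copies, called DR4. Without hormone it recruits corepressors and with hormone coactivators, and in the striatum, where nearly all neurons are GABAergic projection neurons, it is the more abundant of the receptor types.

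Sequence was read only where a summit fell in a RefSeq promoter window of GRCm38.p6, which runs from 250 bases before to 50 after an annotated start. That holds for 59 members in 66 windows of 64 genes, and for 403 remaining peaks in 461 windows. The 4 windows that follow belong to genes named below and show what lies under a strong summit; the capitals mark the summit with 10 bases on both sides. They are Flywch2 (chr17:23786032-23786331, minus strand, pileup 120.19), Uck1 (chr2:32260030-32260329, minus strand, 110.8), Rxrb (chr17:34031562-34031861, plus strand, 82.63) and Kcna5 (chr6:126535506-126535805, minus strand, 69.49), each printed 5′ to 3′ on the strand of the gene.
Flywch2: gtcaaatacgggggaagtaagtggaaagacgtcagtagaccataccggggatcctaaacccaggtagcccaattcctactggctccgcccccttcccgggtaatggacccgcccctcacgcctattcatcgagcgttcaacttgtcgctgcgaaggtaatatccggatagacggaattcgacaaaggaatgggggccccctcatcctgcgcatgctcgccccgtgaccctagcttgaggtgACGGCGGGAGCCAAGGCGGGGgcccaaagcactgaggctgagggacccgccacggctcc
Uck1: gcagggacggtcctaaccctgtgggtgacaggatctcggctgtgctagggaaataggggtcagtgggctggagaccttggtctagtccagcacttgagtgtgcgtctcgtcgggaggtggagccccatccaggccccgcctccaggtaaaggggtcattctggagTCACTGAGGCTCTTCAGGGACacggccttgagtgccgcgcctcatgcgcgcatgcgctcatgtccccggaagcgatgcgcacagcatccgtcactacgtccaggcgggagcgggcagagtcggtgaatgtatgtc
Rxrb: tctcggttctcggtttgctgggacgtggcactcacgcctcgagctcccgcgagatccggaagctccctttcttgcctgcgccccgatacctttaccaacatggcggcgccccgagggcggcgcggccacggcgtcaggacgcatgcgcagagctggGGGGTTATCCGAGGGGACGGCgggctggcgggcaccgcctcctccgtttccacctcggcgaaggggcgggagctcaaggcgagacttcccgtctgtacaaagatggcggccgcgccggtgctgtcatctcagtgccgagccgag
Kcna5: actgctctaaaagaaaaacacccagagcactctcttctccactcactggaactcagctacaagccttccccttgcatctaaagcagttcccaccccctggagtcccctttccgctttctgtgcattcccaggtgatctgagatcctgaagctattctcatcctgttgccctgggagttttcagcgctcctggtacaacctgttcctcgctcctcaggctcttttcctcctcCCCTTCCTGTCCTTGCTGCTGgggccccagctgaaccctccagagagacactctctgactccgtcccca

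In none of these 4 windows did the best DR4 alignment on either strand reach 10 of the 12 hexamer bases. It matched 8 in Flywch2 and Rxrb, and 9 in Uck1 and Kcna5. The Flywch2 summit was 1 bp from the annotated start, at base 252 of the window, and the Rxrb summit fell at base 167, in the stretch between Rxrb and the oppositely oriented zinc transporter gene Slc39a7, whose window it also entered.

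The next 3 windows, chosen after their values were seen, are those in which a DR4 alignment with 10 of 12 bases had its centre within 25 bp of a member summit; the capitals mark the 16 bases of the alignment. They are Eprs (chr1:185362794-185363093, plus strand, pileup 51.65), Alkbh7 (chr17:56997089-56997388, plus strand, 61.04) and 2300009A05Rik (chr9:63399195-63399494, minus strand, 79.82).
Eprs: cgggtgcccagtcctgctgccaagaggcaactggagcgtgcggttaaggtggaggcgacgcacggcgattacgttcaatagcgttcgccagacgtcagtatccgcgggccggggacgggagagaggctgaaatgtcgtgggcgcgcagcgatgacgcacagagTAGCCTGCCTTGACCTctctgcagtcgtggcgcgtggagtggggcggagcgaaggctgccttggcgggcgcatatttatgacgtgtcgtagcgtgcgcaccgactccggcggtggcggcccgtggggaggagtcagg
Alkbh7: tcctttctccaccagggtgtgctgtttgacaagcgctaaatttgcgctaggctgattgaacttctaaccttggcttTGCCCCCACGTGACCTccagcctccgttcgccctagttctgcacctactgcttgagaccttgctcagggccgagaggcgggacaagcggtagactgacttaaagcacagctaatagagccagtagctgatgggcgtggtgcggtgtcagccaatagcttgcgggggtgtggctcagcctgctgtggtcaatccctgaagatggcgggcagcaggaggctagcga
2300009A05Rik: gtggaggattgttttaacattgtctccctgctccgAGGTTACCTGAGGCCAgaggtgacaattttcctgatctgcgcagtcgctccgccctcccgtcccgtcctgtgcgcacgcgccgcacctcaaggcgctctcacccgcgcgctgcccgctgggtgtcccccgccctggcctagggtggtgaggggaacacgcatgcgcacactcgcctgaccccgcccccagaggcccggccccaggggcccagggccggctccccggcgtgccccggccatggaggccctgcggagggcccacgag

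The centre of the alignment lay 4.5 bp from the summit in Eprs, which encodes the glutamyl-prolyl tRNA synthetase, 11.5 bp in Alkbh7, a mitochondrial AlkB homologue gene, and 21.5 bp in 2300009A05Rik. The other members with such an alignment were at Gm1673, with TGATCTCCGGTGTCCT centred 57.5 bp from the summit, Cep126, a centrosomal protein gene, with TTACCTCAGTTTACCT at 79.5 bp, and Krtcap2, with AGGTGACTCTAGGCCA at 107.5 bp in both of its windows. The alignment in Alkbh7 also holds the E-box letters CACGTG.

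The alignments were counted at every spacing from 0 to 8 bases, on both strands, with at least 10 of 12 hexamer bases matched, a search chosen after seeing the data. At a spacing of 4, 7 of 66 member windows held one, 10.6% (4.37 to 20.6), beside 52 of 461 windows of remaining peaks, 11.3% (8.54 to 14.5), and 3.02% of all 32851 promoter windows. By summit, the counts were 6 of 59 members and 46 of 403 remaining peaks. At the other spacings the shares were 0% to 6.06% in member windows, 1.52% to 3.04% in windows of remaining peaks and 2.73% to 3.86% in all windows. The DR4 share of the members was therefore close to that of the remaining peaks, and the member interval reached down to 4.37%.

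**Figure D1:**
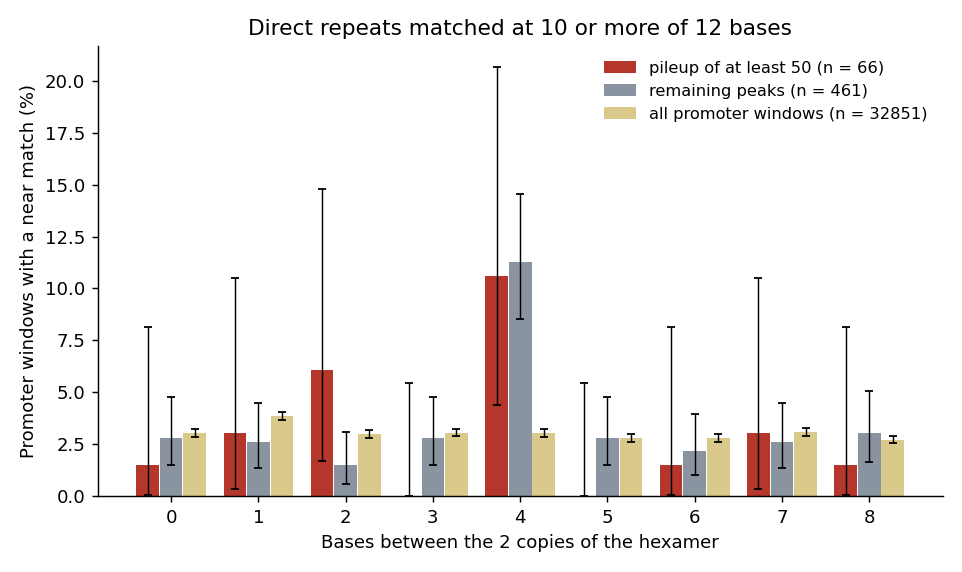
Share of promoter windows (%, vertical axis) with an alignment of 10 or more of 12 bases to a direct repeat of AGGTCA, by the number of bases between the copies (horizontal axis), for windows holding a member summit, windows holding a remaining summit, and all windows; error bars are 95% exact intervals. Both peak sets are highest at a spacing of 4, at 10.6% and 11.3%, where all windows stand at 3.02%.

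Exact elements gave little to compare. The hexamer AGGTCA, searched on both strands, was in 8 of 66 member windows, 12.1% (5.38 to 22.5), beside 18.4% (15.0 to 22.3) of windows of remaining peaks and 16.3% of all windows. Exact matches to DR4 (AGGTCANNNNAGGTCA), DR1 (AGGTCANAGGTCA), IR0 (AGGTCATGACCT) and ER6 (TGACCTNNNNNNAGGTCA), each of which contains the hexamer, were in 0 windows of either peak set, and in 5, 13, 0 and 1 of all windows. The GC box GGGCGG was in 60.6% (47.8 to 72.4) of member windows, 67.5% (63.0 to 71.7) of windows of remaining peaks and 35.7% of all. CCAAT was in 40.9% of member windows, 40.3% of windows of remaining peaks and 37.4% of all. The E-box CACGTG was in 5 of 66 member windows, 7.58% (2.51 to 16.8), beside 14.1% (11.1 to 17.6) and 7.15%, and the cyclic AMP response element TGACGTCA in 1, 1.52%, beside 3.90% and 1.79%. The median GC content was 60.8% in member windows, 61.7% in windows of remaining peaks and 52.7% in all windows; its part in these shares was not tested.

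Pileup among the members had a median of 63.85 and ran from 50.71 to 261.99, where the remaining peaks had a median of 20.66 and ended at 49.77. The median fold was 19.5 in members and 6.71 in remaining peaks, and the median width was 403.5 and 252 bp. The median background was almost the same, 2.05 beside 2.00, but a background of at least 4 was found at 59 members, 10.3%, and 5.18% of remaining peaks. At the threshold, 20 members shared the pileup of 50.71, among them peaks inside Spock1, a proteoglycan gene, inside Tenm4, a teneurin gene, and 874 bp from Ppp1r15a, the stress-induced phosphatase subunit gene. Just outside it, 33 remaining peaks shared 49.77, among them peaks inside Myt1l, a neuronal transcription factor gene, 48961 bp from Tmx1 and 487598 bp from Vstm2a.

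**Figure D2:**
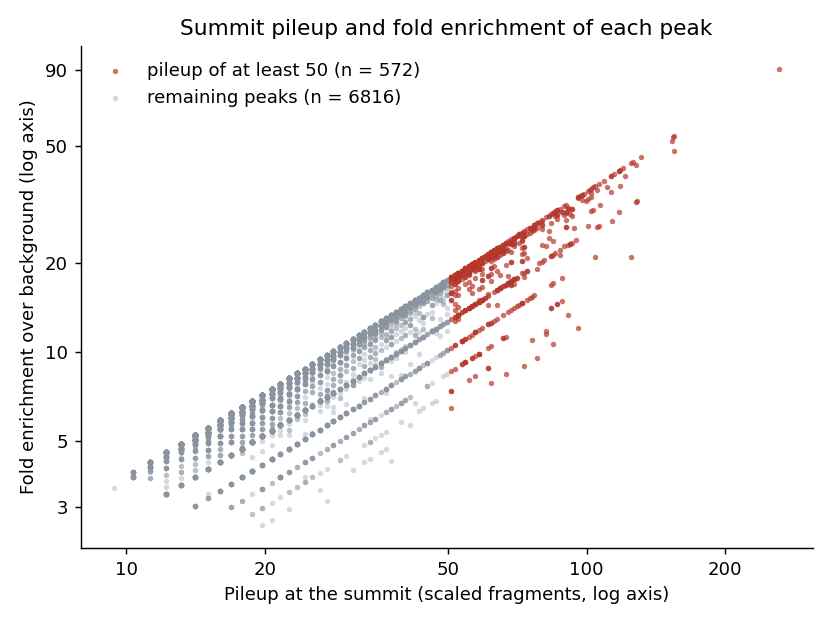
Pileup at the summit (scaled fragments, log axis) against fold enrichment over background (log axis) for each of the 572 members and 6816 remaining peaks. The upper edge is formed by peaks at the lowest background of 1.89, and the single point at the upper right is the peak of pileup 261.99.

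The 30 members of highest pileup were spread over every class of location. Of them 7 lay within 1 kb of a coding gene end, 10 elsewhere inside a gene, 6 between genes at 1 to 30 kb, 4 at 30 to 100 kb and 3 beyond 100 kb. The first, at chr17:4626072-4626693, had a pileup of 261.99 and no coding gene within 100 kb; it lay inside the non-coding gene Gm34259, with Arid1b, a chromatin remodelling gene, 367.961 kb away. The peak at chr5:28859707-28860277 (154.0), nearest to the RING finger gene Rnf32 at 332.711 kb, and the one at chr2:7734271-7734739 (107.05), 338.185 kb from the RNA-binding protein gene Celf2, were as remote. In all, 5 of the 30 had their summit inside a long non-coding RNA gene, the first among them.

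A pair of strong members lay on either side of Dio3, the imprinted gene of the deiodinase that inactivates T3. One, at 112.68, was 51305 bp upstream of Dio3 inside the non-coding gene Gm40576. The other, at 154.94, had Ppp2r5c and not Dio3 as its nearest coding gene. It was 73.621 kb upstream of Ppp2r5c, a phosphatase 2A subunit gene. Other remote members of this rank were at 96.978 kb from Podxl (124.89, at a background of 5) and at 96.596 kb from Basp1 (113.62), which encodes a membrane protein of growing axons.

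Members of the top 30 at or near a coding gene end, and 1 near a tRNA gene, had varied neighbours. Nr1d2, the REV-ERBβ gene and a clock repressor, had its member (121.13) 763 bp downstream of the start. Chn1, a Rac regulator gene of axon growth, had one (112.68) 308 bp upstream, and Uck1, a nucleoside kinase gene, one (110.8) 49 bp upstream. Qrsl1 and Rtn4ip1, both of mitochondrial function, share a member (106.11) that lay 163 bp downstream of the Qrsl1 start and in the Rtn4ip1 window. Trp53inp2, an autophagy gene, had one (106.11) 400 bp downstream, and Hnrnpul1, an RNA-binding protein gene, one (112.68) 36 bp from its nearest end. Eef2, the elongation factor gene, had one (154.94) 1479 bp upstream, and Wnt10a, a Wnt ligand gene, was 12778 bp from one (153.06) that was 137 bp from a tRNA gene.

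Inside genes, the top 30 held members in Wipi1 (131.46), an autophagy gene, Dmtn (128.64), which encodes an actin-bundling protein, Robo3 (127.71), an axon guidance receptor gene, Rcn1 (124.89), Wfikkn1 (118.32), Spata13 (117.38), Sik3 (117.38), a salt-inducible kinase gene, Ttll11 (114.56), a tubulin glutamylase gene, and Kcnq3 (105.17), an M-current channel gene. The member at 108.93 lay inside Gdf1 and Cers1, 2221 bp from Upf1. Between genes, Ppp1r32 had one (127.71) at 4609 bp, Tcf12, a helix-loop-helix factor gene, one (117.38) at 12317 bp, Cipc, a CLOCK-interacting protein gene, one (125.83) at 20756 bp, and Slc24a2, a cation exchanger gene, one (118.32) at 24770 bp. Beyond the top 30, further summits in promoter windows were at Map3k10 (104.23), a kinase gene, Ndufa5 (103.29), of respiratory complex I, Kmt5c (100.47), a histone H4 methyltransferase gene, 5031425E22Rik (90.15) and 4632428C04Rik (87.33).

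Over all members, 108 summits were no more than 1 kb from the end of a coding gene, 18.9% (15.8 to 22.3), beside 17.1% of the remaining peaks. Inside a protein-coding gene lay 324 members, 56.6% (52.5 to 60.7), beside 60.1%. With the whole interval in place of the summit, 62.4% of members and 62.3% of remaining peaks overlapped a gene. A wider peak overlaps a gene more readily, and the median widths were 403.5 and 252 bp. The part of width was not tested. More than 100 kb from any coding gene end lay 87, 15.2% (12.4 to 18.4), beside 18.9%. That count includes summits deep inside long genes. Between genes, 53 members were that far, 9.27% (7.02 to 11.9), beside 10.3%. The median distance to the nearest end was 13943 bp for members (11465 to 17392, an order-statistic interval) and 18318.5 bp for remaining peaks (16978 to 19405). Members had a median of 3 coding genes within 100 kb and remaining peaks 2. Of 248 intergenic members 39 lay in a long non-coding RNA gene, 15.7% (11.4 to 20.9), beside 18.9% of the intergenic remaining peaks. A tRNA gene was within 1 kb of 1 of 572 members, 0.175% (0.00443 to 0.970), and of 42 of 6816 remaining peaks, 0.616% (0.444 to 0.832); no tRNA gene is listed on chromosome 18.

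**Figure D3:**
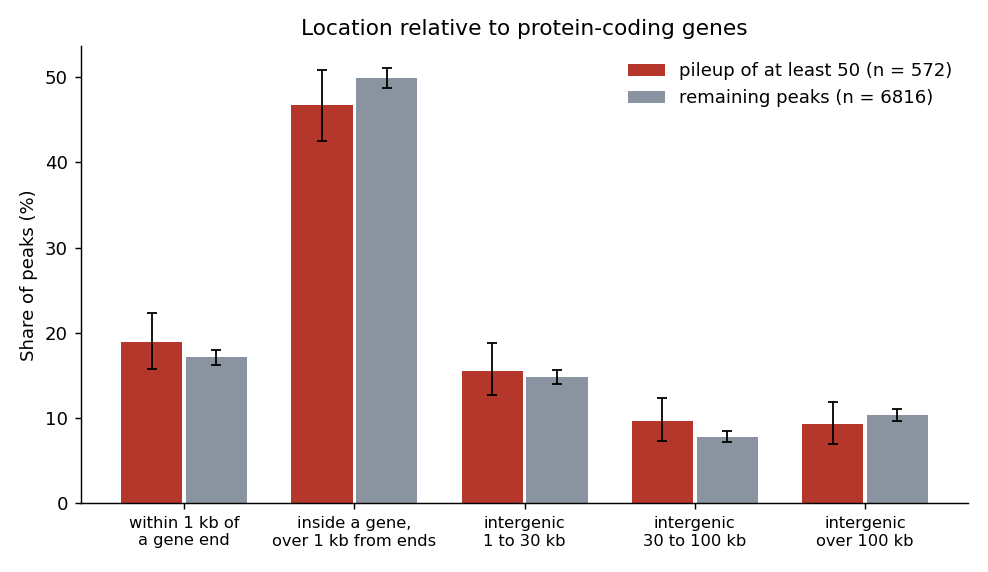
Share of peaks (%, vertical axis from 0) in each class of location relative to protein-coding genes, for members and remaining peaks; error bars are 95% exact intervals. Members stand at 18.9% near gene ends and 46.7% elsewhere inside genes, beside 17.1% and 49.9% of remaining peaks.

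Within the members, shares were also counted in bands of pileup, the value that chose the members. The share near gene ends was 17.5% of 229 members at 50 to 60 and 16.8% of 197 at 60 to 75. It was 22.3% of 103 at 75 to 100 and 27.9% (15.3 to 43.7) of 43 at 100 and above. The share more than 100 kb from any coding gene end, inside or between genes, was 16.6%, 15.7%, 14.6% and 6.98% (1.46 to 19.1) in the same bands. The share inside genes was 59.0%, 58.4%, 51.5% and 48.8%. All bands had overlapping intervals on each share, the lowest and highest included, at 12.8 to 23.0 and 15.3 to 43.7 for gene ends.

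Strand was known for starts in the promoter table, which gave a finer measure on 552 members outside chromosome 18. Within 250 bp of an annotated coding start lay 66 of them, 11.96% (9.37 to 15.0), beside 7.70% of remaining peaks, a ratio of 1.55. Within 1 kb of the 5′ gene end lay 15.2% of members and 12.6% of remaining peaks, and within 1 kb of the 3′ gene end 1.99% and 2.66%. Among the 96 members within 1 kb of a start, 66 were within 250 bp, 68.8% (58.5 to 77.8), beside 509 of 959 remaining peaks, 53.1% (49.9 to 56.3). Upstream of the start were 59 members and 37 were downstream, where the remaining peaks had 487 and 468. The wider peaks and larger fragment numbers of the members go with these values, and their part was not tested.

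**Figure D4:**
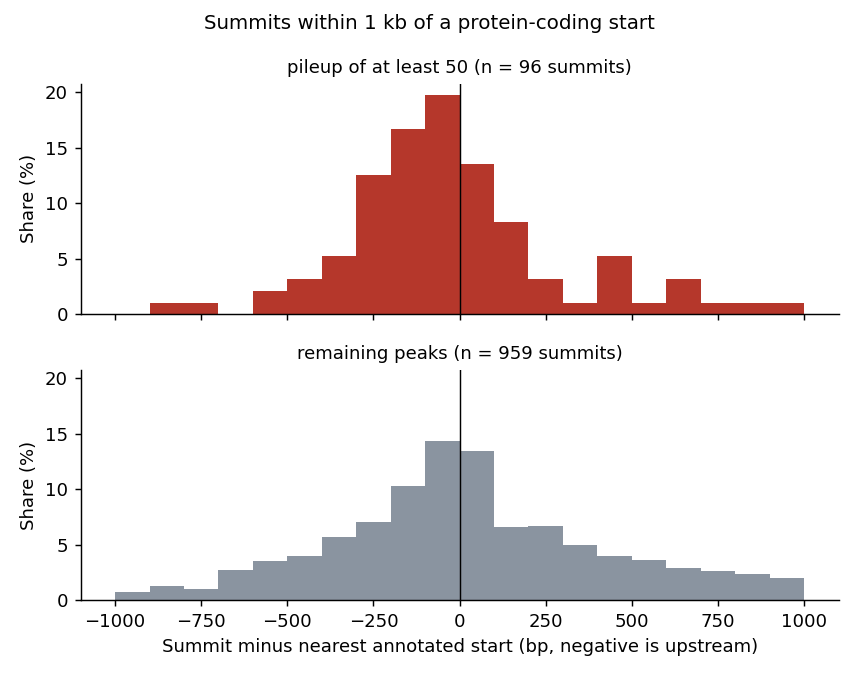
Position of summits relative to the nearest annotated protein-coding start (bp, negative is upstream) as the share of summits per 100 bp (%), for 96 members above and 959 remaining peaks below. Of the members 68.8% are within 250 bp of the start, beside 53.1% of the remaining peaks.

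Members had another peak of the list within 10 kb in 23.8% (20.3 to 27.5) and within 50 kb in 53.8%, beside 18.8% and 47.5% of remaining peaks. Grouped at 10 kb, the 572 members fell into 558 loci, of which 7 held more than 1 member and 21 members in all. The largest held 8 members between 47655041 and 47685312 on chromosome 6, in or beside the predicted genes Gm36327, Gm40363, Gm40364, Gm40365, Gm40367 and Gm40369. One of its summits was 53 bp from Rn4.5s, a 4.5S RNA gene. Their pileups were 61.97 to 95.78, but their folds only 7.87 to 13.3, at backgrounds of 5.90 to 7.27. Farther along the chromosome, peaks starting at 47748378 and 47744029 were left out for a background of 8.94 and 11, and the part of the raised background was not tested. Without these 8, 564 members remained. Members by chromosome ran from 5.54% of the peaks on chromosome 13 to 9.95% (7.20 to 13.3) on chromosome 6, and each chromosome's interval held the overall 7.74%.

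The members inside genes had 313 distinct host genes, with a median length of 81.0 kb (57.8 to 93.9), beside 64.0 kb (59.9 to 68.3) for 2807 hosts of remaining peaks and 17.2 kb for all coding genes. At a pileup of at least 75 the order turned, with 43.1 kb for hosts of members and 62.7 kb for hosts of the others. More than 1 member lay in 17 hosts. Pde10a, the striatal phosphodiesterase gene, held 3 of pileup 84.51, 61.04 and 55.4. Rgs9, which speeds up G protein signalling turnover in striatal neurons, held 103.29 and 52.58, with 36.1 and 18.6 in fold. Synaptic genes among them were Grid1, a delta glutamate receptor gene (98.6 and 57.28), Gabbr2, a GABA-B receptor subunit gene (72.3 and 69.49), Cacna1d, an L-type calcium channel gene (62.91 and 54.46) and Rgs7bp, a membrane anchor gene for RGS proteins (72.3 and 55.4). The splicing factor gene Rbfox1, 1527.69 kb long, held 85.45 and 63.85.

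A gene was linked to a member when the summit lay inside it or within 30 kb of its ends. That linked 820 of 20665 autosomal coding genes, 3.97%, and 464 of the 572 members; any peak linked 33.9% of the genes. The 25 gene lists covered 101 of the linked genes through 91 members, and no list was tested. The lists were chosen with earlier results of these data known. The intervals count each gene separately, although neighbouring genes of a list can share a member. The 19 linked zinc finger and Zbtb genes rest on 14 members, and the 7 linked nuclear receptor genes on 6. Gene length differs between lists and widens the window, so the median length is given beside each leading list, where all coding genes had 17.5 kb; its part was not tested.

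**Figure D5:**
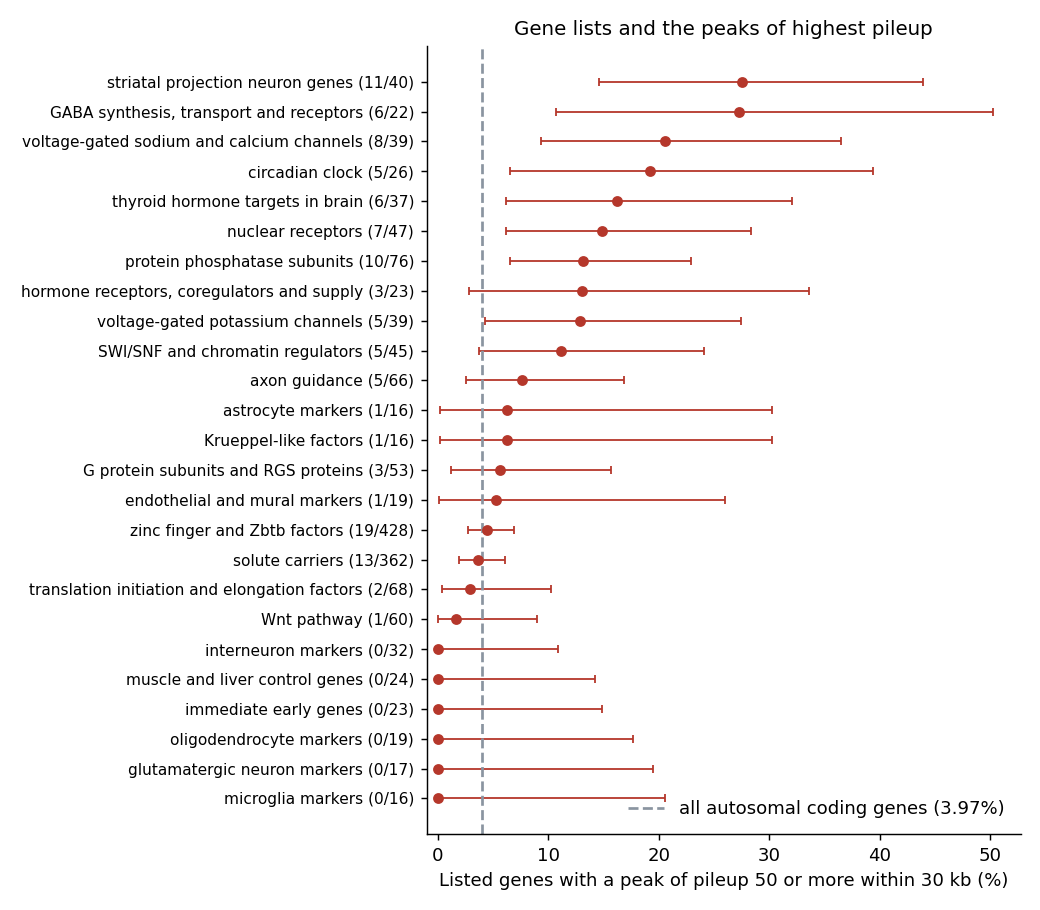
Share of autosomal genes of each list with a member inside or within 30 kb (%, horizontal axis), with the number of genes linked and listed in brackets and 95% exact intervals; the dashed line is the 3.97% of all autosomal coding genes. Striatal projection neuron genes stand at 27.5%, and 6 lists, including interneuron markers and immediate early genes, stand at 0%.

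Striatal projection neuron genes had a member at 11 of 40, 27.5% (14.6 to 43.9), with a median length of 41.6 kb. Of the 30 with any peak, 36.7% had a member, beside 11.7% of the 7012 coding genes with any peak, and the median of the strongest pileup per gene was 40.38, beside 24.41; pileup chose the members, so this median is no separate support. After Rgs9 and Pde10a, the strongest were at Adcy5 (71.37), the main striatal adenylyl cyclase gene, inside the gene at chr16:35220542-35221009, and Strn (70.43), the striatin scaffold gene. Further ones, named after their values were seen, were at Pde7b (65.73), Rarb (57.28), Rasgrp2 (56.34), Pde1b (55.4), Drd2 (54.46), the dopamine D2 receptor gene, at 588 bp, and Arpp21 (51.65), while Scn4b shares a member (61.04, background of 6) with Scn2b. The Pde1b member lay inside Nckap1l, 1951 bp from Pde1b. With links within 5 kb the count was 10 of 40, beside 2.16% of all coding genes.

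GABA synthesis, transport and receptor genes had a member at 6 of 22, 27.3% (10.7 to 50.2), with a median length of 89.6 kb. Of the 15 with any peak, 40% had a member, beside 11.7% of all coding genes with any peak. The median of the strongest pileup per gene was 41.32, beside 24.41. Here too pileup chose the members, so this median is no separate support. Gabbr2 led with 72.3. Gabra5 and Gabrg3, neighbouring receptor subunit genes, share a member of 65.73 inside Gabrg3 and another of 57.28, 5716 bp away. Gad2, the GABA synthesis gene that also carries Cre, had a member of 55.4, 1456 bp inside the gene. Reads of the Cre allele were not separated here. Gabra4 and Gabrb1, named after their values were seen, share a member of 51.65, so the 6 genes are not independent counts. Voltage-gated sodium and calcium channel genes had a member at 8 of 39, 20.5% (9.30 to 36.5), with a median length of 110.474 kb: the calcium channel genes Cacnb2 (77.0), Cacna1c (69.49) and Cacna1d (62.91) led, before Scn2b (61.04). Potassium channel genes had 5 of 39, 12.8% (4.30 to 27.4), among them Kcnq3 (105.17), Kcna5 (69.49), 9 bp from the gene, and Kcnh2 (61.04). The Kcnh2 member lay 9364 bp outside the gene, with Nos3 as its nearest coding gene.

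Circadian clock genes had a member at 5 of 26, 19.2% (6.55 to 39.4), with a median length of 28.7 kb. These were Cipc (125.83), Nr1d2 (121.13), Klf9 (100.47), Dbp (92.96), an output factor of the clock, and, by a member at 718 bp named after its value was seen, the repressor gene Bhlhe41 (51.65). Any peak was at 21 of the 26. Thyroid hormone targets in brain had 6 of 37, 16.2% (6.19 to 32.0), at a median length of 19.5 kb, led by Flywch2 (120.19), Klf9, a Krueppel-like factor gene, at 5181 bp, Hr (97.66), the hairless corepressor gene, at 4589 bp, and Dbp. The member linked to Hr lay within 1 kb of an end of Reep4, its nearest coding gene. Klf9, Dbp and Hr each stand in more than 1 list.

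Nuclear receptor genes had a member at 7 of 47, 14.9% (6.20 to 28.3), with a median length of 47.1 kb: Nr1d2, Ppard (102.35), whose member lay inside the neighbouring Def6, Rxrb (82.63), 84 bp from the gene, and Nr5a1 (67.61) were the strongest. Thra and Thrb, the receptor genes themselves, had none. The strongest remaining peak near Thra had a pileup of 47.89, at a background of 4, and near Thrb 37.56. Dio3 had none within 30 kb, with a strongest remaining peak of 34.74. Receptors, coregulators and hormone supply together had 3 of 23, 13.0% (2.78 to 33.6): Hr, by the member next to Reep4, Rxrb and Ncoa3 (61.04), a coactivator gene.

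Phosphatase subunit genes had a member at 10 of 76, 13.2% (6.49 to 22.9), led by Ppp1r32 (127.71), the catalytic subunit gene Ppp1ca (93.9), Ppp2r5c (69.49) and Ppp1r10 (68.55). The Ppp1ca member lay 840 bp outside the gene, within Rad9a, and the Ppp1r10 member 19736 bp outside, within 2310061I04Rik. Chromatin regulator genes had 5 of 45, 11.1% (3.71 to 24.1), with Mllt3 (101.41), the H3K27 demethylase gene Kdm6b (94.84), Smarcd1 (87.33), and Tet3 (67.61), a methylcytosine dioxygenase gene. Kdm6b and Tet3 held their members. The Mllt3 member lay 2274 bp outside the gene, and the Smarcd1 member 13429 bp outside, within Asic1. Axon guidance genes had 5 of 66, 7.58% (2.51 to 16.8), with only Robo3 as a host. Robo3 and Robo4 share 127.71. Ntn5 was linked by the Dbp member (92.96), 13328 bp away. Efna1 was linked by one (65.73) at 25389 bp, inside Trim46 and Krtcap2. G protein and RGS genes had 3 of 53, 5.66%, Rgs9, Gnb5 (67.61) and Gnao1 (61.04), and Krueppel-like factors 1 of 16, Klf9. The Gnb5 member lay 20590 bp outside the gene, with Bcl2l10 as its nearest coding gene.

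The broad families stood near the share of all genes. Zinc finger and Zbtb genes had a member at 19 of 428, 4.44% (2.69 to 6.85), with Zbtb7a (154.94, the Eef2 peak), Zfp607b (104.23, also the Map3k10 peak), Zfp523 (102.35, the Ppard peak) and Zfp27 (84.51, inside Zfp383). Solute carrier genes had 13 of 362, 3.59% (1.93 to 6.06), with Slc24a2 (118.32), Slc8a3 (104.23), a sodium and calcium exchanger gene, Slc25a45 (84.51) and Slc6a9 (83.57), a glycine transporter gene. Of these, only Slc8a3 held its member. The Slc25a45 member lay 27143 bp outside the gene, within 1 kb of an end of Dpf2. The Slc6a9 member lay 5607 bp outside, at a background of 5. Translation factor genes had 2 of 68, 2.94%, Eef2 and Eif3d (50.71), and Wnt pathway genes 1 of 60, 1.67%, Wnt10a. The Eif3d member lay 25123 bp outside the gene, with Txn2 as its nearest coding gene.

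The last 8 lists, of immediate early genes, markers of other cell types and control genes, had 0 or 1 linked gene each. Immediate early genes had 0 of 23 (an upper bound of 14.8%), although 13 of them, 56.5%, had a peak of lower pileup, and their median length is 4.29 kb. With links within 100 kb, where 8.85% of all coding genes had a member, 17.4% of the immediate early genes did. Interneuron markers had 0 of 32 (upper bound 10.9%), with a lower peak at 9 and a median length of 7.25 kb. Glutamatergic neuron, oligodendrocyte and microglia markers had 0 of 17, 0 of 19 and 0 of 16, and the muscle and liver control genes 0 of 24, with upper bounds from 14.2% to 20.6%. Astrocyte markers had 1 of 16, Slc4a4, a bicarbonate transporter gene with members of 62.91 and 54.46, and vessel markers 1 of 19, Esam, whose member (68.55) also lies near Nrgn, the neurogranin gene. All of these bounds lie above 3.97%, so a share equal to that of all genes was within each interval at these list sizes.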

How the data were processed

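The series holds 3 immunoprecipitated fractions and 1 input, grouped from the labels. The 1 peak list was used; read totals per library were not. The submitters' processing notes name MACS2 2.1.1.20160309.0, Bowtie2 2.3.4.2 and the builds mm10 and GRCm38. The role and settings of each tool, and whether fractions were pooled, are not given in the sources used here. Per the file headers, the authors deposited the pileup signal at each summit, the fold enrichment as a linear ratio over background, and a q-value column as −log10 values. These are the authors' scores, used to describe and filter peaks within the list.

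Genes and promoter windows came from RefSeq tables of GRCm38.p6, with 21887 coding genes and 32851 windows; 17492 coding genes had a window. All but 1 of the list symbols matched a gene of the table. Distances run from the summit to annotated gene ends, and an alternative used the whole interval. Python 3.11.15, pandas 2.3.3, NumPy 2.4.6, SciPy 1.17.1 and Matplotlib 3.10.9 were used, and the distance functions were tested on simulated data. Intervals are 95% exact binomial or, for medians, order-statistic intervals; no test was run. PCR copies of a molecule are not independent reads, so the intervals cover counting error only.

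Members, lists and measures were chosen with earlier results of these data known. Named genes are the hosts and nearest genes of the 30 members of highest pileup, up to 4 genes per list and up to 8 promoter genes by pileup, 3 peaks on either side of the threshold, and the genes Dio3, Gad2, Hr, Klf9, Thra and Thrb. A gene that the rule names is not reported here. Others are named as chosen after their values were seen, as are the hosts with more than 1 member. For some linked members, a host or nearest gene other than the listed gene is also named. Alternatives changed the pileup, background and fold limits, the remaining set, the distances and the link window. No sequence was read outside promoter windows.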

Additional observations from a re-analysis of the deposited data

How the results depend on the processing

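No paired analysis was possible because the list has no value per library, and leaving out each fraction could not be run for the same reason. The number of members was 1075 at a pileup of at least 40, 146 at 75 and 265 at a fold of at least 20. At a pileup of at least 75, the share within 1 kb of a gene end was 24.0%, 6.85 points above the others, the share inside a gene 50.7%, 9.33 points below them (a difference of -9.33), and the share beyond 100 kb 12.3%. The median host length was then 43.1 kb, and its difference of -19.7 kb reversed. At a fold of at least 20, the gene-end share was 22.6%, 5.58 points above the others. Other definitions moved values in both sets: the gene-end share was 15.2% at 500 bp, 24.0% at 2 kb and 24.0% for ends of all annotated genes, and the share inside was 63.8% for all genes and 62.4% for the whole interval, where the remaining peaks had 62.3%. Neighbour shares were 15.7% at 5 kb and 53.8% at 50 kb. Links to a listed gene went with the window, with 15.9% of members at 30 kb, 11.01% at 5 kb and 28.0% at 100 kb. Of 171 alternatives to these values 150 stayed within their interval or, for the number of members, within 1.5 times. Among single lists, 10 of 50 alternatives left the interval; immediate early genes had 17.4% at 100 kb. The neighbour share with 1 peak per locus holds by construction and was not run. Leaving out the 8 members on chromosome 6, chosen after seeing the data, kept every share within its interval.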

Other observations

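The rule left out 96 peaks, of which 72 lie on the sex chromosomes, 12 at the start of chromosome 9 and 12 elsewhere at a background above 8. Of these, 20 had a pileup of at least 50. The 12 at the start of chromosome 9 had pileups of 210.34 to 286.4, where the strongest member had 261.99, but folds of 1.38 to 1.81 over backgrounds of 116 to 208. A further 6 had a background of 8.94 to 56.4, among them a peak inside Sfi1 (pileup 77.94, fold 1.68) and 2 peaks on chromosome 6, starting at 47748378 (92.96) and 47744029 (104.23), where the 8 members in predicted genes end at 47685485. On the X chromosome, a peak inside Brwd3, a bromodomain gene, had a pileup of 57.28 and a fold of 20.2 at a background of 1.89, within the range of the members. The peak on Y had a pileup of 51.65 and a background of 7.31.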
